A study of Mus musculus with 6 samples.

Results

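Iron and metal handling was examined in Lewis cells treated with SD70 through 10 genes, chosen by name among the 16081 genes listed. Those genes were Mt1, Mt2, Slc30a1, Mtf1, Tfrc, Fth1, Ftl1, Slc40a1, Hmox1 and Ireb2. The cells were the Lewis mouse lung carcinoma line, a purchased line that the labels call mouse lung adenocarcinoma, grown in culture without host cells. RNA sequencing compared 3 samples treated with DMSO (the vehicle) and 3 treated with SD70 (a small-molecule inhibitor of the histone demethylase KDM4C), each for 24 h. The dose of SD70 in this experiment is not given in the sources used here, and no further genotype or treatment distinguished the groups.

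Cells buffer zinc and cadmium with metallothioneins, small cysteine-rich proteins whose genes are switched on by the metal-sensing transcription factor MTF1 through short promoter motifs called metal response elements. Iron enters most cells on transferrin through the transferrin receptor, is stored inside ferritin shells and leaves through ferroportin. Iron regulatory proteins bind hairpins called iron-responsive elements when iron is scarce, and thereby block translation of ferritin mRNA and stabilize transferrin receptor mRNA.

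Letter matches to the metal response element in promoters and to the iron-responsive hairpin in transcripts are shown first, since these are the elements through which metal is known to act on several of these genes. In the RefSeq promoter windows of the GRCm38.p6 build, from 250 bases before to 50 bases after the start site, both strands were searched for TGCACNC and TGCGCNC, the core letters of the metal response element. A window was found for 8 of the 10 genes, Hmox1 and Slc40a1 having none in the table. Matches are printed in capitals with 9 bases on each side, along the strand of the gene.
Mt1, chr8:94179057-94179081: gtcccgctgTGCACACtggcgctcc
Mt1, chr8:94179082-94179106: agggagctcTGCACTCcgcccgaaa
Mt1, chr8:94179100-94179124: cccgaaaagTGCGCTCggctctgcc
Mt2, chr8:94172386-94172410: catcgcctcTGCACCCggcccctcg
Mt2, chr8:94172481-94172505: cagacccttTGCGCTCagctccttt
Mt2, chr8:94172559-94172583: ggggagggcGTGTGCAggctctgtc
Mt2, chr8:94172613-94172637: attcgggtcGTGCGCAggcccaggg
Slc30a1, chr1:191906729-191906753: gggggttccGAGTGCAaagcaaagt
Slc30a1, chr1:191906802-191906826: ctccgggccGAGCGCAgtcgccgcg
Tfrc, chr16:32608834-32608858: cgcactggcTGCGCGCgcagttcgc

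The Mt2 window held 4 matches, the Mt1 window 3 and the Slc30a1 window 2. Distances are from the start site of each window, which is base 94179089 for Mt1, 94172618 for Mt2 and 191906781 for Slc30a1. For Mt1 and Slc30a1 that start lies inside the span of the gene given below, which begins further upstream. In Mt1 the matches begin 23 bases before the start site and at bases 3 and 21 after it. In Mt2 the matches begin 223, 128 and 50 bases before the start site and at base 5 after it. In Slc30a1 they begin 43 bases before it and at base 31 after it. The 2 matches in Tfrc are 1 palindromic site read on both strands, whose letters overlap. No match was found in the windows of Mtf1, Fth1, Ftl1 or Ireb2. Among all 32851 windows of 300 bases, 25.7% held at least 1 match, 7.11% at least 2, 1.97% at least 3 and 0.517% at least 4. A match describes letters and is not evidence that a factor binds there.

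The iron-responsive hairpin was searched in the untranslated regions of coding transcripts on GRCm38, as a bulged C, 5 base pairs and a 6-base loop beginning CAGTG. It was found in 123 of 21877 genes (0.562%), among them 4 of the 10 genes described here, and the loop is printed in capitals. Fth1, Ftl1 and Slc40a1 each carry 1 hairpin in the 5' untranslated region, and Tfrc carries 4 in the 3' untranslated region.
Fth1, chr19:9982733-9982759 (+): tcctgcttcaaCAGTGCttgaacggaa
Ftl1, chr7:45459780-45459806 (-): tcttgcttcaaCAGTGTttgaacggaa
Slc40a1, chr1:45925466-45925492 (-): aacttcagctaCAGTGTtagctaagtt
Tfrc, chr16:32631220-32631246 (+): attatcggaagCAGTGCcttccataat
Tfrc, chr16:32631599-32631625 (+): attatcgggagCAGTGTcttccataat
Tfrc, chr16:32631664-32631690 (+): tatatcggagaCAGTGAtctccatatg
Tfrc, chr16:32631711-32631737 (+): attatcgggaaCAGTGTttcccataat

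Sequencing gave 15276744 to 17060424 counts per sample, and 14062 to 14105 genes had a count above 0. Levels are given as FPKM (fragments per kilobase of transcript scaled by sequencing depth, which allows levels of different genes to be compared), and differences come from edgeR's quasi-likelihood test on counts. A gene passed the test when its p-value, adjusted by Benjamini-Hochberg over the 11552 genes tested, was under 0.01. The labels do not say that the samples came from separate cultures, and the methods speak of independent repeats only for the experiments in general, so p-values measure the spread between these samples, which may be technical. The labelled cell type could be checked only in part. Of the 4 lung adenocarcinoma markers Napsa was detected, Sftpc was at 1 count or fewer in every sample and Nkx2-1 and Sftpb were not analysed here, and of the epithelial markers Krt8 and Krt18 were present whereas Epcam, Cdh1 and Krt19 were at 1 count or fewer. The macrophage markers Ptprc, Csf1r, Fcer1g and C1qa were at 2 counts or fewer in every sample, whereas Cd14 rose (250 to 265 counts with DMSO and 400 to 434 with SD70, log2 fold change 0.77, adjusted p = 5.12e-10) and Cd68 fell (-0.48, adjusted p = 1.21e-04). Summed over the 8 of 10 macrophage markers listed, the FPKM was 24.7 to 25.4 with DMSO and 27.4 to 29.9 with SD70, and its part in the results below was not tested. The 7 fibroblast markers summed to 58.5 to 61.7 and to 57.6 to 61.0, with Pdgfrb higher (2.91-fold) and Pdgfra lower (0.500-fold), the 5 epithelial markers to 148 to 155 and to 94.5 to 106, and the 5 of 8 erythroid markers listed to 3.17 to 4.24 and to 1.87 to 2.62.

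SD70-treated cells carried more mRNA for the zinc exporter Slc30a1, the metal sensor Mtf1, the metallothionein Mt2 and the heme-degrading enzyme Hmox1, and less for the metallothionein Mt1. The change was 3.08-fold for Slc30a1 and 1.24-fold for Hmox1. Of the 9 genes that passed the filter on low counts, 4 rose, 1 fell and 4 did not pass the test, the latter being Tfrc, Fth1, Ftl1 and Ireb2. The share that passed, 55.6%, lay near the 49.9% of all genes tested (25.8% higher, 24.2% lower), so the count alone does not set these genes apart. Only Slc30a1 also changed by at least 2-fold, as did 5.90% of all genes (3.29% higher, 2.61% lower). The groups did not overlap in 5 of the 9 genes, against 64.4% of all genes. The median log2 fold change was 0.08 for these 9 genes and -0.0043 for all genes. In such bulk samples a lower share of cells that make an mRNA and less of it per cell cannot be told apart.

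**Figure D1:**
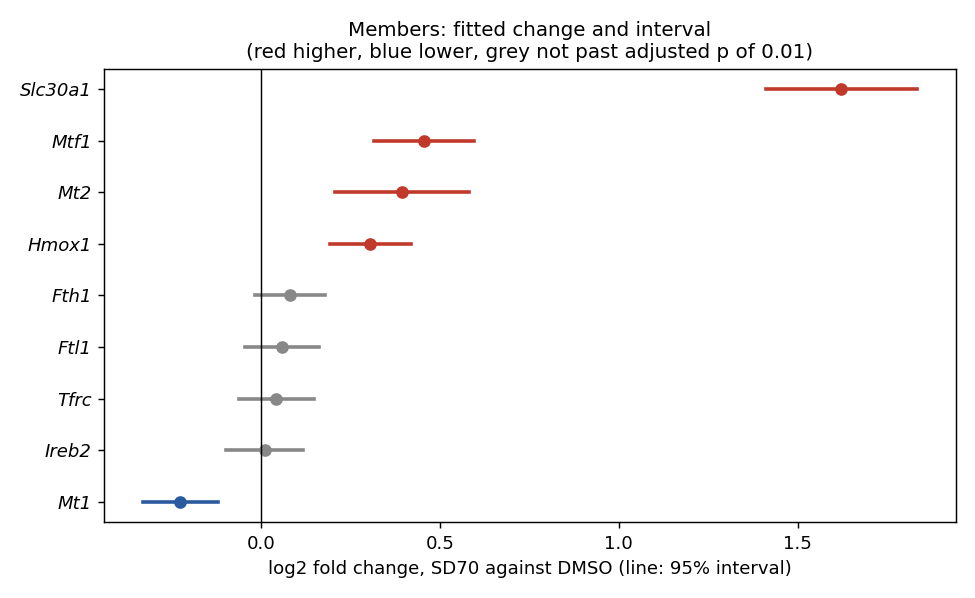
Fitted log2 fold change of SD70 against DMSO (horizontal axis) for the 9 genes tested, 3 samples per group, with lines for the 95% confidence interval of the edgeR fit. Slc30a1 stands at 1.62, Mtf1, Mt2 and Hmox1 lie between 0.31 and 0.45, the intervals of Fth1, Ftl1, Tfrc and Ireb2 include 0, and Mt1 lies below 0.

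Slc30a1 (NCBI Gene 22782, chr1:191906697-191913248) encodes ZnT1, the transporter that carries zinc out of the cell across the plasma membrane and is a known target of MTF1. It had 116, 112 and 104 counts with DMSO and 315, 355 and 289 counts with SD70, which correspond to an FPKM of 1.37, 1.45 and 1.2 and of 3.82, 4.17 and 3.83. Every SD70 sample was higher than every DMSO sample, and the SD70 samples differed little from one another. The mean FPKM rose from 1.34 ± 0.128 to 3.94 ± 0.199 (SD, n = 3 each), and the log2 fold change was 1.62 (SE 0.104, 95% interval 1.41 to 1.83, adjusted p = 1.84e-15). By the size of its change Slc30a1 ranked 182 of the genes tested, although it was the least abundant of the 9.

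Mtf1 (NCBI Gene 17764, chr4:124802549-124849800) encodes the zinc-sensing transcription factor that acts on metal response elements. Its FPKM was 4.18, 4.12 and 4.39 with DMSO and 5.46, 5.48 and 6.06 with SD70. The groups did not overlap, and the log2 fold change was 0.45 (SE 0.0687, adjusted p = 7.21e-07). The deposited counts of Mtf1 were not whole in any of the 6 samples, so they are estimates.

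The neighbouring genes Mt1 and Mt2, both metallothioneins, moved in opposite directions. Mt1 (NCBI Gene 17748, chr8:94178883-94180327) had an FPKM of 1349, 1389 and 1309.6 with DMSO and of 1188, 1176 and 1078 with SD70. Mt2 (NCBI Gene 17750, chr8:94172618-94173567) had an FPKM of 1107, 1284 and 1206 with DMSO and of 1708, 1611 and 1409 with SD70. For Mt1 every SD70 sample was below every DMSO sample, and for Mt2 every SD70 sample was above.

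The fall of Mt1 was small, with a log2 fold change of -0.23 (SE 0.0514, 95% interval -0.33 to -0.12, adjusted p = 2.88e-04), and the interval corresponds to -20.5% to -8.13%. The rise of Mt2 was 0.39 (SE 0.0844, 95% interval 0.21 to 0.58, adjusted p = 0.00208). The call for Mt2 was lost without SD70 replicate 1 (0.33, adjusted p = 0.0131) or without SD70 replicate 2 (0.36, adjusted p = 0.0172), and it kept its direction in both. SD70 replicate 3 had the lowest level of the SD70 group for both genes. Mt1 and Mt2 are similar in sequence, and how reads matching both were assigned is not given in the sources used here.

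The ratio of Mt1 to Mt2 FPKM, which does not depend on library scaling, was 1.22, 1.08 and 1.09 with DMSO and 0.695, 0.730 and 0.765 with SD70. The more abundant of the pair was thus Mt1 in every DMSO sample and Mt2 in every SD70 sample. The mean log2 ratio was 0.17 ± 0.0976 and -0.46 ± 0.0687 (SD, n = 3 each), a difference of -0.63. A two-sided exact permutation test gave p = 0.1, the smallest that 3 against 3 samples allow. The sum of both was 2455, 2673 and 2516 FPKM with DMSO and 2896, 2787 and 2487 FPKM with SD70, so the groups overlapped in total metallothionein mRNA (2548 ± 112 and 2723 ± 212, SD). Mt3 and Mt4 were not analysed here.

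**Figure D2:**
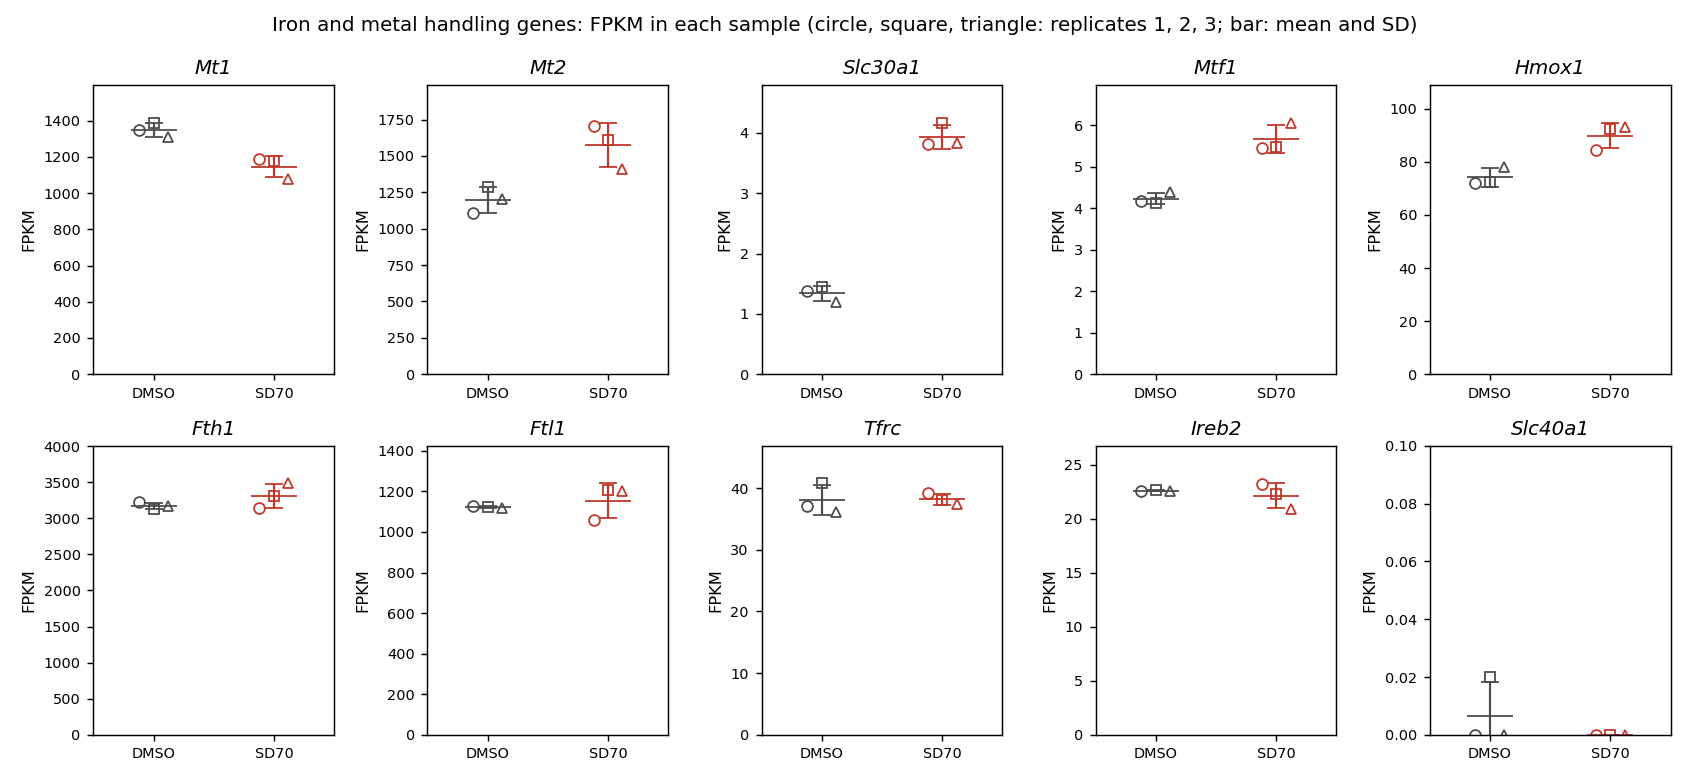
FPKM (vertical axes, each from 0) of the 10 genes in every sample, DMSO in grey and SD70 in red, with circles, squares and triangles for replicates 1, 2 and 3 and bars for the mean and SD of 3 samples. The groups are apart for Mt1, Mt2, Slc30a1, Mtf1 and Hmox1 and overlap for Fth1, Ftl1, Tfrc and Ireb2, and Slc40a1 stays at or next to 0.

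On the iron side, Tfrc, Fth1, Ftl1 and Ireb2 did not pass the test, and the levels of each overlapped between the groups. Tfrc (NCBI Gene 22042, chr16:32608896-32632794), the transferrin receptor, had an FPKM of 37.2, 40.8 and 36.2 with DMSO and of 39.2, 38.1 and 37.4 with SD70. All 3 SD70 samples fell inside the range of the DMSO samples. The log2 fold change was 0.04 (SE 0.0518, adjusted p = 0.501), and its 95% interval allowed a change of -4.28% to 10.8%. Its sign turned under 1 other scaling, as given in the closing section.

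Fth1 (NCBI Gene 14319, chr19:9980600-9985111), the ferritin heavy chain that oxidizes iron for storage, was the most abundant of the 10 genes. Its FPKM was 3219.8, 3129.9 and 3165 with DMSO and 3146, 3307 and 3482 with SD70. Replicate 1 of the SD70 group lay within the DMSO range and the other two SD70 samples above it. The log2 fold change was 0.08 (SE 0.0479, adjusted p = 0.148) with an interval of -1.17% to 13.1%.

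Ftl1 (NCBI Gene 14325, chr7:45457944-45459886), the ferritin light chain, had an FPKM of 1126, 1125 and 1119 with DMSO and of 1057, 1204 and 1203 with SD70. The SD70 samples lay on both sides of the closely grouped DMSO samples. The log2 fold change was 0.06 (SE 0.0510, adjusted p = 0.332) with an interval of -3.07% to 11.9%. Only 3 of its 6 counts were whole, and Ftl1 has processed pseudogenes that can take reads from it, so its level is uncertain.

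Ireb2 (NCBI Gene 64602, chr9:54862658-54912534) encodes iron regulatory protein 2, which binds the hairpins shown above. Its FPKM was 22.5, 22.7 and 22.6 with DMSO and 23.2, 22.3 and 20.9 with SD70, again with the SD70 samples on both sides of the DMSO samples. The log2 fold change was 0.01 (SE 0.0529, adjusted p = 0.885) with an interval of -6.55% to 8.47%, and its sign turned under several settings, as given in the closing section.

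Ratios between iron genes were compared within samples. The Fth1 to Ftl1 ratio of FPKM was 2.86, 2.78 and 2.83 with DMSO and 2.98, 2.75 and 2.90 with SD70, a log2 difference of 0.02 (two-sided exact permutation p = 0.6). The Tfrc to Fth1 ratio was 0.0115, 0.0130 and 0.0114 with DMSO and 0.0125, 0.0115 and 0.0107 with SD70, a log2 difference of -0.05 (two-sided exact permutation p = 0.6). In both ratios the groups overlapped, and the sign turned when 1 sample was left out, to -0.0018 for Fth1 to Ftl1 without SD70 replicate 1 and to 0.0073 for Tfrc to Fth1 without DMSO replicate 2.

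Slc40a1 (NCBI Gene 53945, chr1:45908070-45926532), which encodes the iron exporter ferroportin, had 1 count in DMSO replicate 2 and 0 in the other five samples. It did not pass the filter on low counts and was not tested. A count of 0 allows up to 3 counts, or 0.176 to 0.196 CPM (counts scaled by library total) depending on the sample, and a difference between the groups was not detectable at this depth. Such a limit covers counting error only.

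Hmox1 (NCBI Gene 15368, chr8:75093618-75100593) encodes heme oxygenase 1, which breaks down heme and frees its iron and is known to respond to heme, oxidative stress and several metals. Its FPKM was 71.9, 72.3 and 78.2 with DMSO and 84.3, 92.35 and 93.1 with SD70. The groups did not overlap, and the mean rose from 74.1 ± 3.52 to 89.9 ± 4.86 (SD, n = 3 each). The log2 fold change was 0.31 (SE 0.0557, 95% interval 0.19 to 0.42, adjusted p = 1.56e-05).

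Ordered by FPKM, the DMSO samples had Fth1 first, then Mt1, Mt2, Ftl1, Hmox1, Tfrc, Ireb2, Mtf1, Slc30a1 and Slc40a1. Neighbours in that order did not overlap between samples except Mt2 and Ftl1. In the SD70 samples Mt1 moved from the second to the fourth place, below Mt2 and Ftl1, and the remaining order was unchanged. Ftl1 and Mt1 overlapped there.

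The genes whose 6 values lay nearest to those of 3 of these genes were found by Euclidean distance of log2 CPM centred on the DMSO mean, over 9614 genes. Nearest to Mt1 were Arl5a (distance 0.0486), C1galt1 (0.0610) and Pomp (0.0648). Nearest to Tfrc were Ctdspl2 (0.0388), Gm46430 (0.0588) and Stx5a (0.0653), and nearest to Hmox1 were C1qbp (0.0578), Prpf19 (0.0589) and Crem (0.0664).

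The study's pattern was set beside the changes known for metal load and metal chelation. Zinc or cadmium load is known to raise Mt1, Mt2 and Slc30a1 and to lower Slc39a10, a zinc importer, and zinc chelation moves them in the reverse directions. These directions, and the choice of Slc39a10 from a list in which 6 importers rose and 2 fell, were written down after the values had been seen, so the count below is a description only. Of the 4 genes, 3 (Mt2, Slc30a1 and Slc39a10) moved as in zinc or cadmium load and 1 (Mt1) moved as in zinc chelation, while 25.8% of all genes rose and 24.2% fell. Iron chelation is known to raise Tfrc mRNA and the targets of hypoxia-inducible factor (HIF), whose degradation needs iron, and iron load lowers Tfrc. Tfrc did not pass in either direction. Of the 14 other iron uptake and trafficking genes tested, described below, 9 rose, none fell and 5 did not pass. The iron transporter Slc11a2 was among those that rose (log2 fold change 0.64, adjusted p = 8.22e-12 by edgeR). These genes were not set beside the known directions for iron, so the comparison for iron covers Tfrc and HIF targets only. Of 14 HIF targets 13 fell (24.2% of all genes did) and 1 rose, with a median log2 fold change of -0.72. The HIF list was also chosen with earlier results of these data known, so its count is a description only. The genes that fell included Adm (-1.76), Ankrd37 (-1.52), Car9 (-1.42) and Bnip3 (-1.18). Vegfa was the 1 that rose (0.17, adjusted p = 0.00374), a call lost with library totals alone, upper quartile factors or limma on FPKM, and without DMSO replicate 2 (0.15, adjusted p = 0.0462), DMSO replicate 3 (0.14, adjusted p = 0.0522) or SD70 replicate 3 (0.14, adjusted p = 0.0263). Ferritin responds to iron mainly in translation, which these mRNA levels do not measure. Metal content was not measured in the data used here, and neither load nor chelation was tested as a cause.

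Zinc transporters moved in both directions. The other exporters of the Slc30 family had 7 of 9 genes listed and 5 tested, of which 2 rose, 1 fell and 2 did not pass (60.0% passed against 49.9% of all genes), with a median log2 fold change of 0.10. Slc30a6 (0.40, adjusted p = 8.82e-05) and Slc30a5 (0.22, adjusted p = 5.11e-04), which load zinc into the secretory pathway, rose by less than Slc30a1 did in log2 fold change. Slc30a9 fell by 0.17 on the log2 scale (adjusted p = 0.00558 by edgeR), a call lost when DMSO replicate 1 (adjusted p = 0.0124), DMSO replicate 3 (0.0252), SD70 replicate 2 (0.0302) or SD70 replicate 3 (0.0132) was left out.

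Of the 14 importers of the Slc39 family 13 were listed and 11 tested, of which 6 rose, 2 fell and 3 did not pass (72.7% passed against 49.9% of all genes, median 0.22). Slc39a14, which also carries iron that is not bound to transferrin, had an FPKM of 26.6, 27.4 and 26.7 with DMSO and of 47.5, 49.1 and 54.5 with SD70, a change of 0.93 on the log2 scale (adjusted p = 9.19e-17). Slc39a10 had an FPKM of 32.5, 33.0 and 32.2 with DMSO and of 19.6, 19.2 and 16.7 with SD70 (-0.78, adjusted p = 5.27e-14). The groups were apart in both genes, in opposite directions. Slc39a13, an importer of the secretory pathway, fell (-0.83, adjusted p = 2.92e-13) and Slc39a9 rose (0.71, adjusted p = 4.39e-12).

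**Figure D3:**
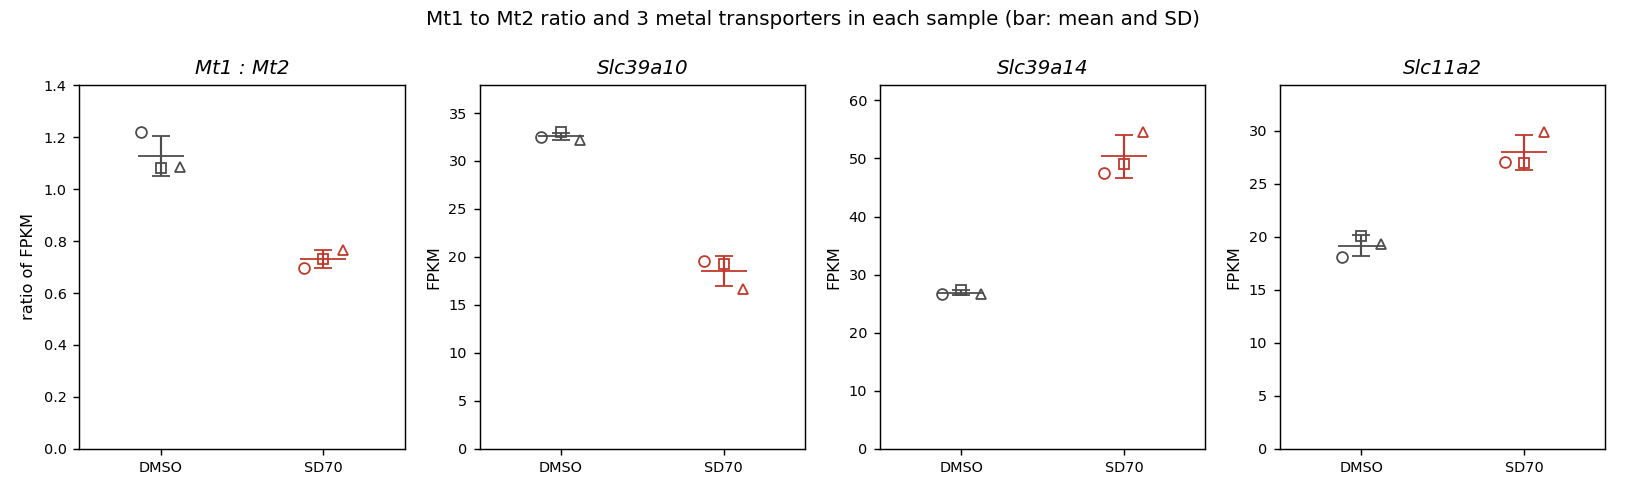
Ratio of Mt1 to Mt2 FPKM and the FPKM of Slc39a10, Slc39a14 and Slc11a2 (vertical axes, each from 0) in every sample, DMSO in grey and SD70 in red, circles, squares and triangles for replicates 1, 2 and 3, bars for the mean and SD of 3 samples. The groups are apart in all 4 panels, with the ratio above 1 in the DMSO samples and below 1 in the SD70 samples.

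Genes of iron uptake and trafficking other than Tfrc moved upward where they passed. Of 19 genes 18 were listed and 14 tested, of which 9 rose, none fell and 5 did not pass (64.3% passed against 49.9% of all genes, median 0.28). Among all genes tested 25.8% rose and 24.2% fell. Steap1 and the metalloreductase Steap2, which belong to the STEAP family of membrane proteins, rose from a mean FPKM of 35.5 to 90.3 (log2 fold change 1.37, adjusted p = 1.09e-11) and from 43.4 to 73.1 (0.79, adjusted p = 4.60e-15). Lcn2, the siderophore-binding lipocalin, rose from 307 to 540 (0.83, adjusted p = 1.15e-15) and is also known as an inflammatory gene. Steap4 rose most (1.79, adjusted p = 1.22e-06) but had only 7 to 15 counts with DMSO and 34 to 40 with SD70, and its change was 0.53 with limma on log2(FPKM + 1). Slc11a2, the transporter DMT1 that brings iron out of endosomes, was picked after its values were seen and had an FPKM of 18.1, 20.1 and 19.3 with DMSO and of 27.1, 27.0 and 29.9 with SD70 (0.64, adjusted p = 8.22e-12).

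Regulators of the iron regulatory proteins and other transcripts with the hairpin had 7 genes listed and 5 tested, of which 2 rose and 3 did not pass (40.0% passed against 49.9% of all genes, median 0.15). Fbxl5, the iron-sensing ubiquitin ligase subunit that degrades iron regulatory protein 2, rose from a mean FPKM of 46.4 to 62.3 (0.45, adjusted p = 1.97e-09), and Cdc42bpa rose by 0.26 (adjusted p = 5.98e-05). Aco1, the gene of iron regulatory protein 1, had a log2 fold change of 0.15 that did not pass (adjusted p = 0.0337). Protein levels were not measured in the data used here.

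Heme synthesis and handling changed in both directions, with 4 of 15 genes tested higher, 7 lower and 4 not passed (73.3% passed against 49.9% of all genes, median -0.12). Alas1, which encodes the first and rate-limiting enzyme of heme synthesis outside red cells, fell from a mean FPKM of 18.7 to 11.99 (log2 fold change -0.60, adjusted p = 1.99e-08). Urod also fell (-0.47, adjusted p = 1.42e-07), whereas the synthesis enzymes Uros (0.77, adjusted p = 1.75e-05) and Cpox (0.74, adjusted p = 7.78e-13) rose. The heme-degrading Hmox1 described above is counted apart from this list.

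**Figure D4:**
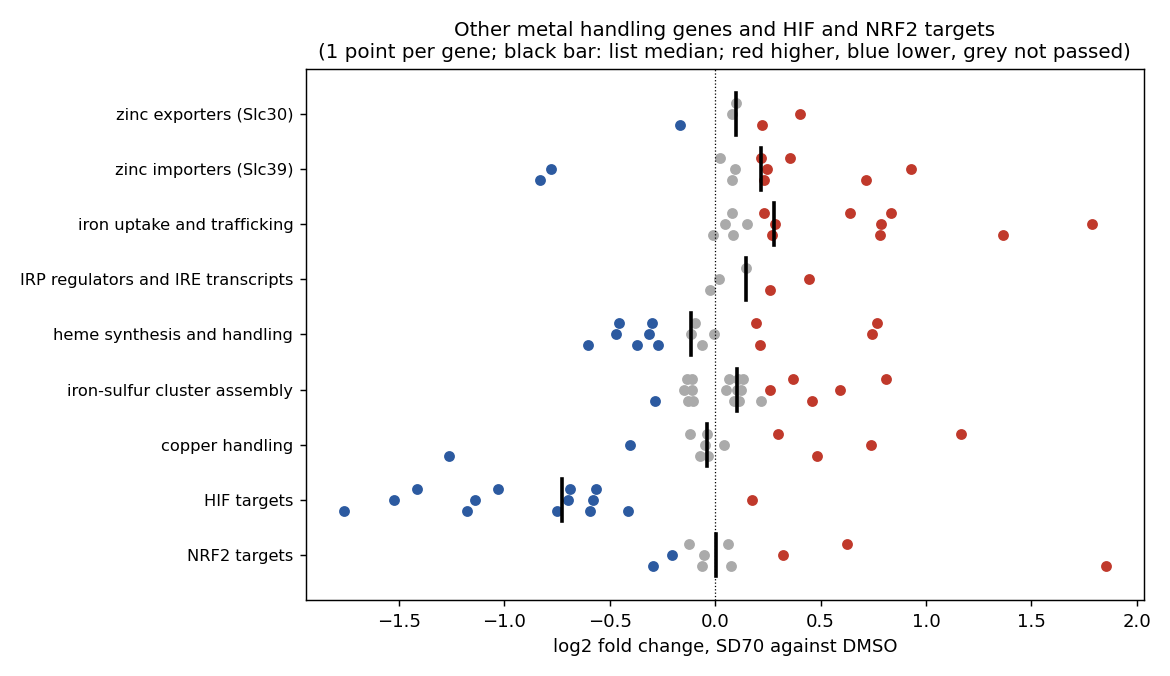
Log2 fold change of SD70 against DMSO (horizontal axis) for each tested gene of 9 lists, 1 point per gene, with red for genes that rose, blue for genes that fell, grey for genes that did not pass and a black bar for the list's median. The HIF targets lie to the left apart from 1 gene, and the iron uptake and trafficking genes that passed all lie to the right.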

How the data were processed

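RNA of 6 samples was sequenced on the BGISEQ-500 platform after oligo(dT) selection, and the authors aligned reads to GRCm38.p6 with HISAT. The submitters' processing notes name StringTie 1.3.3b and another mouse build (mm8). No deposited coordinates were used, and those printed come from RefSeq and GENCODE on GRCm38. The authors deposited for each sample an expected count per gene, not normalized, and a second value per gene taken from its behaviour to be FPKM, normalized for length and depth. The counting tool and its use of strand are not given in the sources used here. Between 8.84% and 9.28% of counts were not whole, so counts were rounded.

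The analysis used edgeR 4.0.16 in R 4.3.3, with filterByExpr, TMM factors (0.984 to 1.02), robust quasi-likelihood fits and Benjamini-Hochberg adjustment over 11552 genes, and it was tested on simulated data. A 2-fold call added to the adjusted p a change of 1 or more, up or down, on the log2 scale. Ratios of FPKM were compared by two-sided exact permutation tests. Replicates differed by more than sampling noise (chi-square per gene 2.12 to 4.98) and all were kept. Samples with the same number deviated together (correlations 0.176, 0.254 and 0.157 over 9623 genes), and the labels give both groups the numbers 1 to 3, so a fit with the replicate block was an alternative. Other alternatives were DESeq2 1.42.0, limma 3.58.1 on log2(FPKM + 1) and log2(FPKM + 0.1), 3 other scalings, 2 other filters and leaving out each sample. The genes, lists and tests were chosen with earlier results of these data known. All 10 genes were named, with up to 4 genes per list that passed with the largest change and the 3 genes nearest to Mt1, Tfrc and Hmox1.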

Additional observations from a re-analysis of the deposited data

How the results depend on the processing

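Of 45 genes (the 9 tested, 33 named from lists for passing with large changes, and Slc11a2, Vegfa and Aco1, added after seeing the data), 39 kept their direction and their side of the threshold under all 15 alternatives. Mt2, Slc30a9, Vegfa, Tfrc and Ireb2 did not, and Steap4 kept both under 14 but had too few counts for the filter of 10 counts in each sample. The 2-fold calls numbered 681 and fell to 283 with limma on log2(FPKM + 1), which lowers the change of weakly expressed genes; leaving out 1 sample gave 621 to 721. Calls at an adjusted p under 0.01 numbered 5102 to 5346 with 1 sample left out and 5129 to 5943 otherwise. Tfrc turned to -0.00042 with upper quartile factors. Ireb2 turned to -0.0285 with library totals alone, -0.0328 with upper quartile factors, -0.0304 and -0.0317 with limma on log2(FPKM + 1) and log2(FPKM + 0.1), to -0.0013 with at least 10 counts in every sample, and ranged from -0.0277 to 0.0430 with 1 sample left out. Neither gene passed in any of these, and the cause was not tested. With 1 sample left out, 3 or 4 of the genes described rose and 1 fell. Mt1 stayed between -0.27 and -0.18 and Slc30a1 between 1.08 (limma on log2(FPKM + 1)) and 1.66. Genes that passed with 1 sample left out numbered 12 to 14 for HIF targets (14 with all samples), 8 to 10 for heme handling (11) and 7 for Slc39 importers (8), by count and not by identity. Vegfa was 0.13 to 0.14 under the 4 scalings or limma fits that lost its call. With 1 sample left out, the difference in log2 ratio was -0.66 to -0.57 for Mt1 to Mt2, -0.0018 to 0.0563 for Fth1 to Ftl1 and -0.11 to 0.0073 for Tfrc to Fth1. The replicate block changed no call for the 9 genes tested and gave the Mt1 to Mt2 difference of -0.63 an exact sign-flip p = 0.25, the smallest that 3 pairs allow. Scalings moved the median of all genes by -0.0425 to -0.0019 on the log2 scale. The 3 samples of each group limit the precision, as do the few counts of Slc40a1 and Steap4.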

Other observations

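Genes that use iron or other metals, beyond those described above, moved in part. Of 21 genes of iron-sulfur cluster assembly, all tested, 5 rose, 1 fell and 15 did not pass (28.6% passed against 49.9% of all genes, median log2 fold change 0.10). Hspa9, the mitochondrial chaperone that helps pass on clusters, rose from a mean FPKM of 299.94 to 514 (log2 fold change 0.81, adjusted p = 6.63e-16 by edgeR). Lyrm4 (0.59), Fdx2 (0.46) and Nfu1 (0.37) also rose. Of 12 copper handling genes 4 rose, 2 fell and 6 did not pass (50% passed against 49.9% of all genes, median -0.04). Sco2 (1.17) and Sco1 (0.74), which deliver copper to cytochrome c oxidase, and Slc31a2 (0.48) rose, whereas the copper exporter Atp7b fell (-1.26) from a mean FPKM of 0.623 to 0.257, a change that was -0.37 with limma on log2(FPKM + 1).

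Of 10 targets of the oxidative stress factor NRF2, which also acts on Hmox1 and on the ferritin genes, 3 rose, 2 fell and 5 did not pass (50% passed against 49.9% of all genes, median 0.0025). Slc7a11, the cystine importer, rose most (log2 fold change 1.85, adjusted p = 7.23e-24 by edgeR), from a mean FPKM of 4.91 to 17.5. Txnrd1 (0.63) and Gclc (0.32) rose and Srxn1 fell (-0.30).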
